A study of Bos taurus with 8 samples.

Results

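Amino acid transporters are the membrane carriers that bring amino acids into a cell or move them between its compartments. The set described here holds every gene of the deposited table whose symbol belongs to the SLC1A, SLC3A, SLC6A, SLC7A, SLC36A, SLC38A or SLC43A families, which is 51 of 18825 genes. Of these, 50 are carriers or their subunits, and SLC7A6OS entered by its symbol alone and is not a carrier. The rule uses symbols and no measured value, although earlier results of these data were known when the families were picked. The study measured polyadenylated RNA in single cells of bovine embryos from 6 to 9 days after fertilization. Each library pooled cells of several ages, and the 6 libraries labelled wildtype, replicates 1 to 6, are used here. Those embryos carry no edit or treatment in the labels. The sources used here do not name the embryo or sex of a cell, or say how embryos were produced.

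The authors' cell table places each cell in 1 of 7 classes, with names printed here as given. Morula (58 cells) is from day 6 and EB (39 cells) from day 7. MB ICM (51 cells) and MB TE (37 cells) are from day 8, and LB EPI (45 cells), LB PE (25 cells) and LB TE (31 cells) from day 9. ICM, TE, EPI and PE are the usual short forms of inner cell mass, trophectoderm, epiblast and primitive endoderm, the last mostly called hypoblast in cattle. The sources used here do not say how a cell got its class. The classes were made from the same cells, so every difference between classes below describes classes that the RNA itself helped to define.

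Amino acids reach a preimplantation embryo from the fluid around it, and they serve as building blocks, fuel, osmolytes and signals. Carriers differ in what drives them: the SLC1 glutamate carriers and the SLC6 and SLC38 families use the sodium gradient, SLC36 uses protons, and the SLC7 light chains exchange one amino acid for another and need an SLC3 heavy chain to reach the membrane. Carriers on the lysosome, such as SLC38A9, take part in reporting amino acid supply to the growth kinase complex mTORC1. The trophectoderm is a transporting epithelium that forms the placenta's surface, the hypoblast lines the yolk sac and the epiblast forms the embryo proper.

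A library was taken as the replicate, and cells of a library and class were averaged where there were at least 3, which gave 16 averages. Morula has averages in replicates 4 and 6, and EB in replicate 4 only. MB ICM has them in replicates 1, 2 and 5, MB TE in replicates 1, 2 and 3, LB EPI in replicates 2, 3 and 5, and LB PE and LB TE each in replicates 3 and 5. Days 6 and 7 thus share no library average with days 8 and 9, and the effects of age and of library cannot be told apart there. The smallest averages are MB TE replicate 3, of 3 cells, and MB ICM replicate 5, of 5 cells. Of the latter, 4 had at least 20000 reads. Levels are counts scaled to a common total of assigned reads (CPM). Differences are on the scale log2(CPM + 10), which understates the change of low genes. A change was called at a Benjamini-Hochberg adjusted p under 0.05 in limma over the 12540 genes that reached 10 CPM in at least 1 average. A gene that is high in a single class can pass this filter through that class alone. Levels are compared within a gene only, since no gene length enters the values.

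Cells held 2633 to 747345 assigned reads, with a median of 150770.5, and library medians ran from 84897 to 195159. Depth was lowest in LB PE (median 39210 reads), well under LB EPI (196981) and LB TE (196521). All 48 cell barcode sequences recur between libraries. The class names were checked against marker lists, as the summed CPM of each list over the library averages. Trophectoderm markers (8 of 8 in the table) summed to 30736 to 58224 in MB TE and 32456 to 43082 in LB TE, against 1611 to 6497 in the 3 inner classes of days 8 and 9. Epiblast markers (6 of 6) reached 2318 to 2594 in LB EPI and at most 698 elsewhere. Hypoblast markers (8 of 8) stood at 5731 and 6073 in LB PE, at 3937 to 4243 in MB ICM and at 371 to 866 in LB EPI and LB TE. SOX17, a defining hypoblast factor, was at 0 in LB PE. In Morula, EB, LB EPI and LB TE 1 of the 8 was at 0 too, and 7 of the 8 were high enough to be tested. Cumulus and granulosa markers (10 of 10) summed to 1008 in Morula replicate 6 and to at most 100.2 in every other average. Fibroblast markers (8 of 8) summed to 1102 in LB PE replicate 5, 704 in MB ICM replicate 2 and 650.4 in Morula replicate 6, and to at most 315 elsewhere. Blood markers (7 of 8 in the table) did not pass 97.1.

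Of the 51 genes, 36 reached 10 CPM in at least 1 average and were tested. In all 16 averages, 11 were above that level: SLC1A5, SLC3A2, SLC6A20, SLC7A4, SLC7A5, SLC7A7, SLC7A8, SLC38A2, SLC38A7, SLC38A9 and SLC43A1. The remaining 15 were not tested, and their highest averages ran from 0.606 to 9.38 CPM: SLC1A2, SLC6A2, SLC6A4, SLC6A5, SLC6A6, SLC6A14, SLC6A16, SLC6A17, SLC6A19, SLC7A6OS, SLC7A10, SLC7A14, SLC36A3, SLC38A3 and SLC38A8. SLC6A6, the taurine carrier, peaked at 4.24 CPM in LB TE replicate 3 and 2.85 CPM in LB TE replicate 5, and a read of it was seen in 16 of 286 cells. Of the 36 tested, 20 changed in at least 1 of 10 class comparisons and 16 in none. The called values number 49, and in all 49 the library averages of both classes did not overlap. With so few averages per class, a call largely brings this with it. The shares of all genes for these counts were not computed, and those by comparison are given below. SLC7A9 reached 10 CPM in LB PE alone and SLC7A3 in LB EPI alone, so their 3 calls each stand in the counts through the class in which they are high. A like limit holds for SLC36A4, through LB EPI and LB PE replicate 5, and for SLC6A11, through LB EPI and LB TE. In 46 of the called values a library held both classes, and each such library showed the sign of the fit. Those libraries also entered the fit, so this adds no separate support.

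**Figure D1:**
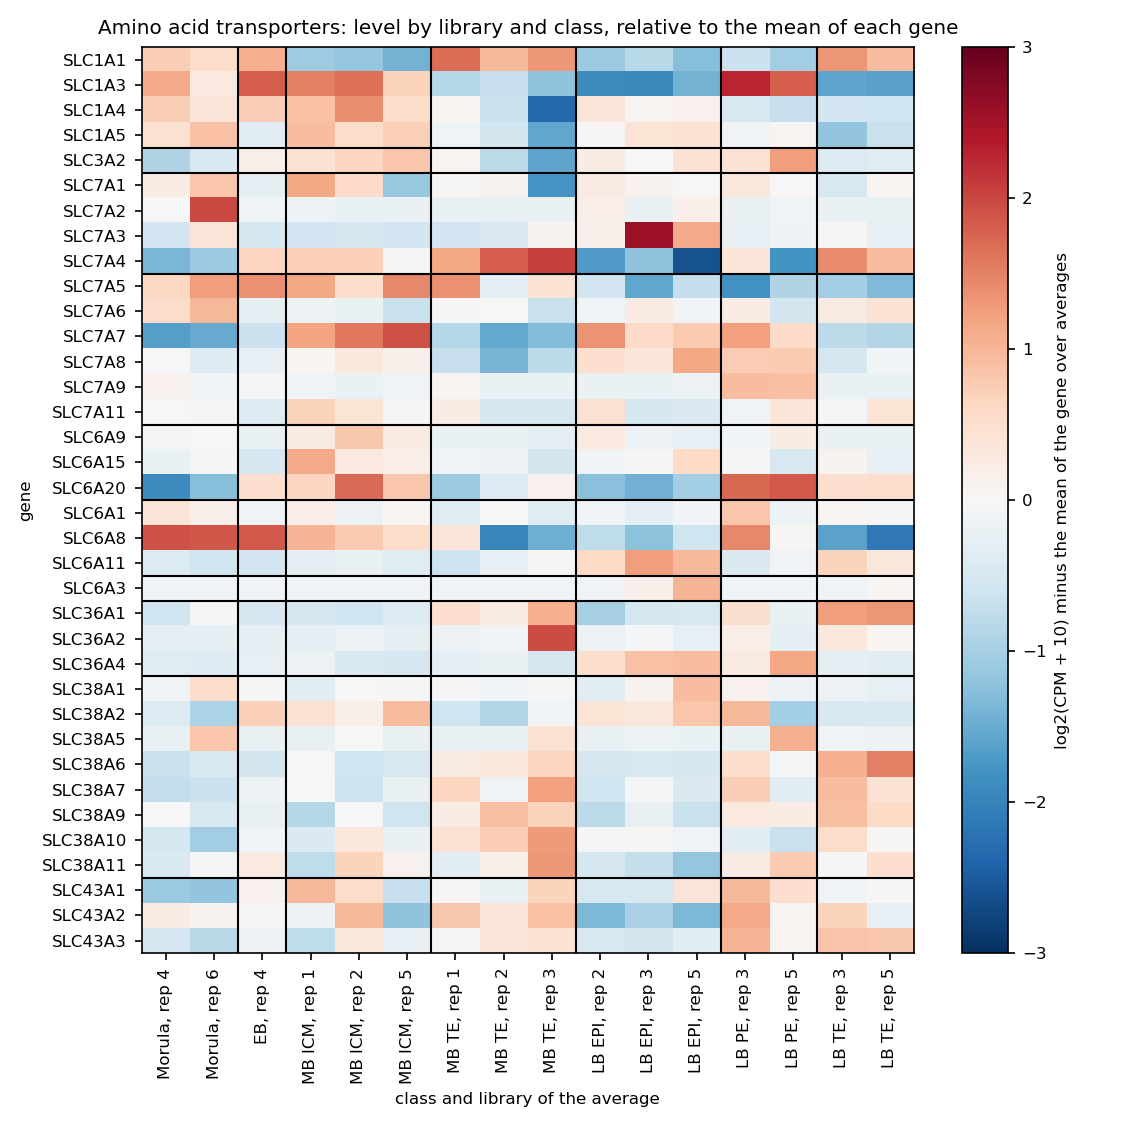
Level of the 36 tested transporters in each of the 16 library averages (columns, grouped by class), as log2(CPM + 10) minus the mean of that gene over the averages; rows are grouped by family and role. Colours compare columns within a row and not rows with each other. SLC1A3 and SLC6A20 are red in both LB PE columns and blue in the 3 LB EPI columns.

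Transporters differed between lineages at both ages. At day 8, MB TE differed from MB ICM in 11 of 36 transporters, beside 10.1% of all tested genes. Of these, 3 were higher (5.97% of all genes) and 8 lower (4.11%). At day 9, LB TE differed from LB EPI in 13 of 36, beside 15.2% of all genes, with 8 higher (8.27%) and 5 lower (6.9%). LB PE differed from LB EPI in 6, beside 5.39%, with 4 higher (2.98%) and 2 lower (2.41%). Against LB TE, LB PE also differed in 6, beside 5.85%, with 4 higher (2.46%) and 2 lower (3.39%). The median log2 difference of the 36 was 0.01 in MB TE against MB ICM and 0.02 in LB TE against LB EPI, beside -0.04 over all genes in each. It was 0.20 in LB PE against LB EPI and 0.10 in LB PE against LB TE, beside -0.01 and 0.02. The comparisons of day 9 share their LB EPI, LB PE and LB TE averages, and those of day 8 share MB ICM and MB TE averages with the comparisons across ages.

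Across ages, the counts ran from 0 to 8. LB EPI against MB ICM called 8, beside 5.1% of all genes, with 3 higher (3.29%) and 5 lower (1.81%), and a median of -0.17 beside 0.02. LB PE against MB ICM called 2, beside 0.702%, with 1 higher (0.59%) and 1 lower (0.112%). LB TE against MB TE called 0 in limma, beside 0.191% of all genes (0.159% higher and 0.0319% lower). At an unadjusted p under 0.05 it had 3 higher and 1 lower, limma-voom called 0, and 1 was called without replicate 2. EB against Morula called 0 in limma, beside 0.0797% of all genes (0.0399% in each direction), with 4 higher and 1 lower at an unadjusted p under 0.05 and 1 by limma-voom. MB ICM against EB called 1, a lower gene, beside 0.175% of all genes (0.0399% higher, 0.136% lower). MB TE against EB called 2, both lower, beside 0.997% (0.534% higher, 0.463% lower). These last rest on a single EB average, and over all genes their medians were shifted by -0.12 and -0.14. The shares of all genes at an unadjusted p under 0.05 were not computed. The counts given at that threshold therefore have no background beside them.

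The glutamate and aspartate carriers SLC1A1 and SLC1A3 differed in opposite directions between MB TE and MB ICM. SLC1A3, the carrier known as GLAST or EAAT1, had 87.6 and 44.1 CPM in Morula replicates 4 and 6 and 146 CPM in EB. In MB ICM replicates 1, 2 and 5 it had 116, 128 and 61.6 CPM, against 14.6, 17.2 and 9.08 CPM in MB TE replicates 1, 2 and 3. By day 9 it stood at 1.87, 1.47 and 6.58 CPM in LB EPI replicates 2, 3 and 5 and at 4.76 and 4.36 CPM in LB TE, while LB PE replicates 3 and 5 held 204 and 144 CPM. The MB ICM averages thus all exceeded every trophectoderm average, and on day 9 LB PE alone was high.

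SLC1A3 was lower in MB TE than in MB ICM by 2.21 ± 0.33 (log2, SE; limma adjusted p = 0.000115). It was lower in LB EPI than in MB ICM (log2 difference -3.01 ± 0.33, limma adjusted p = 2.18e-05). LB PE exceeded LB EPI by 3.83 ± 0.36 (limma adjusted p = 2.3e-06) and LB TE by 3.64 ± 0.39 (limma adjusted p = 9.65e-06). Between LB TE and LB EPI the log2 difference was 0.19 ± 0.36 (limma adjusted p = 0.837), with averages that overlap. LB PE and MB ICM did not differ past the threshold (0.82 ± 0.38, limma adjusted p = 0.365). MB TE fell below EB by 2.68 ± 0.50 (limma adjusted p = 0.00773; 0.0814 without replicate 3). The other 4 changes kept their call in each of the 15 alternative settings.

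The share of cells with a read was also low in LB EPI and LB TE. With each cell thinned to 20000 reads, SLC1A3 was seen in 36 of 47 MB ICM cells, or 76.6% (62.0% to 87.7%), and in 15 of 20 LB PE cells, or 75% (50.9% to 91.3%). It was seen in 2 of 43 LB EPI cells, or 4.65% (0.568% to 15.8%), and in 3 of 31 LB TE cells, or 9.68% (2.04% to 25.8%). The intervals are 95% exact Clopper-Pearson intervals, and they cover counting error only, since reads of amplified cDNA are not independent molecules and cells of a library share their source. Without thinning the shares were 28.9% of 45 LB EPI cells and 80% of 25 LB PE cells, although LB PE cells were the shallower.

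**Figure D2:**
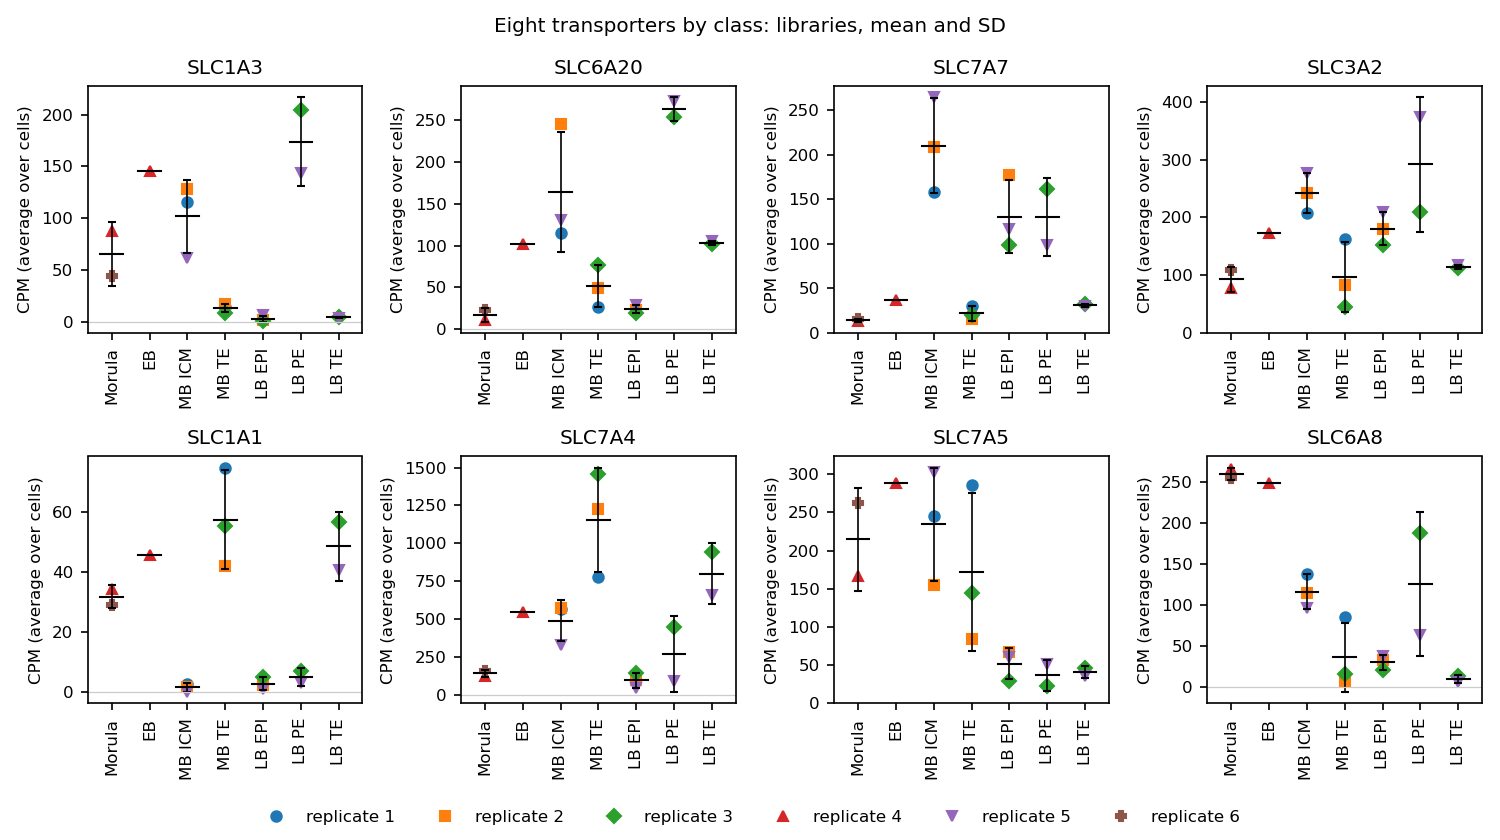
Average CPM of 8 transporters (panels) by class, with 1 point per library and the mean over libraries as a line and the SD as whiskers. SLC1A3 and SLC6A20 peak in LB PE at 144 to 204 and 254 to 273 CPM, and SLC1A1 is above 40 CPM in every trophectoderm average.

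SLC1A1, the carrier known as EAAC1 or EAAT3, was high in trophectoderm on days 8 and 9. Its level was 34.4 and 29.2 CPM in Morula replicates 4 and 6, and 45.8 CPM in EB. On day 8 it stood at 2.79, 1.84 and 0 CPM in MB ICM replicates 1, 2 and 5, while MB TE replicates 1, 2 and 3 held 74.7, 42.0 and 55.4 CPM. On day 9 LB EPI held 2.45, 5.07 and 0.914 CPM, LB PE 7.14 and 2.92 CPM, and LB TE 56.7 and 40.5 CPM. Every trophectoderm average was therefore above every inner average of days 8 and 9.

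MB TE exceeded MB ICM in SLC1A1 by 2.46 ± 0.29 (log2, SE; limma adjusted p = 1.06e-05), and LB TE exceeded LB EPI by 2.18 ± 0.32 (limma adjusted p = 7.5e-05). Both calls held in all 15 settings. LB PE was lower than LB TE (-1.96 ± 0.35, limma adjusted p = 0.00138), which did not pass without replicate 5 (adjusted p = 0.0554). MB ICM was lower than EB (-2.24 ± 0.44, limma adjusted p = 0.034; 0.0523 to 0.225 without replicate 1, 2, 3 or 5, none of which passes). The call against EB rests on a single EB average. It was also lost at a pseudocount of 1 and with logs averaged over cells. At 20000 reads a cell, SLC1A1 was seen in 56.8% of 37 MB TE cells and 54.8% of 31 LB TE cells. It was seen in 2.13% of 47 MB ICM cells and 4.65% of 43 LB EPI cells.

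The neutral amino acid exchangers of the SLC1 family, SLC1A4 and SLC1A5, were both lower in MB TE than in MB ICM, and on day 9 SLC1A5 alone passed between LB TE and LB EPI. SLC1A4, also called ASCT1, had 83.3, 124 and 64.0 CPM in MB ICM replicates 1, 2 and 5, against 42.7, 21.9 and 0 CPM in MB TE replicates 1, 2 and 3, where replicate 3 is an average of 3 cells. It was lower in MB TE by 1.89 ± 0.40 (log2, SE; limma adjusted p = 0.00353; 0.0593 without replicate 2). On day 9 SLC1A4 had 55.9, 43.4 and 45.0 CPM in LB EPI, 26.2 and 21.6 CPM in LB PE and 23.9 and 23.4 CPM in LB TE, and LB TE against LB EPI gave -0.69 ± 0.45 (limma adjusted p = 0.359). SLC1A5, the glutamine exchanger ASCT2, had 129, 97.9 and 110 CPM in MB ICM, against 57.0, 39.6 and 14.8 CPM in MB TE. In MB ICM the highest SLC1A5 cell stood at 1583 CPM, beside a class median of 64.22 CPM. How much of the MB ICM averages and of the day 8 difference comes from that cell was not tested. On day 9 SLC1A5 had 64.6, 87.6 and 88.9 CPM in LB EPI, 57.8 and 67.7 CPM in LB PE and 22.2 and 35.6 CPM in LB TE. All trophectoderm averages of SLC1A5 were below those of the inner cells of the same day.

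SLC1A5 was lower in MB TE than in MB ICM (-1.42 ± 0.32, limma adjusted p = 0.00495) and in LB TE than in LB EPI (-1.22 ± 0.35, limma adjusted p = 0.0202). The day 8 call did not pass with cells of at least 20000 reads only (0.117), by limma-voom (0.176) or with logs averaged over cells (0.0774). The day 9 call did not pass without replicate 3 (0.142) or replicate 5 (0.107).

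SLC3A2, the CD98 heavy chain that carries the SLC7 light chains to the membrane, had 208, 243 and 278 CPM in MB ICM replicates 1, 2 and 5, and 162.5, 83.3 and 44.0 CPM in MB TE replicates 1, 2 and 3. Its Morula averages were 77.5 and 108 CPM and its EB average 173 CPM. A day later it had 180, 152 and 210.3 CPM in LB EPI, 209 and 375 CPM in LB PE, and 112 and 117 CPM in LB TE. The highest value is in LB PE replicate 5 and the lowest in MB TE replicate 3. MB TE was below MB ICM by 1.30 ± 0.32 (log2, SE; limma adjusted p = 0.00962), a call lost without replicate 2 (0.116), 3 (0.0672) or 5 (0.0548). LB PE and LB TE differed by 1.22 ± 0.38 (limma adjusted p = 0.0612), which did not pass. The other heavy chain of the family, SLC3A1, is not among the 18825 genes by that symbol and could not be described.

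SLC7A7, a light chain that exchanges cationic for neutral amino acids with sodium, had the lowest p of any transporter in the comparison of day 8. It had 13.2 and 15.6 CPM in Morula and 37.1 CPM in EB, then 158, 209 and 265 CPM in MB ICM replicates 1, 2 and 5, against 30.6, 15.1 and 19.7 CPM in MB TE replicates 1, 2 and 3. Its day 9 levels were 177, 99.2 and 116 CPM in LB EPI, 161.5 and 99.0 CPM in LB PE, and 32.3 and 29.9 CPM in LB TE. Both inner lineages of day 9 overlapped each other and lay above LB TE.

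MB TE was below MB ICM in SLC7A7 by 2.80 ± 0.31 (log2, SE; limma adjusted p = 4.39e-06), and LB TE below LB EPI by 1.73 ± 0.34 (limma adjusted p = 0.00134). Both kept the call in all 15 settings. LB PE exceeded LB TE by 1.73 ± 0.37 (limma adjusted p = 0.00601), which did not pass without replicate 3 (0.123) or 5 (0.0571). LB PE and LB EPI differed by 0.01 ± 0.34 (limma adjusted p = 1). SLC7A6, another light chain with the same exchange activity, was called in no comparison and ranged from 0 to 21.7 CPM. SLC7A6 and SLC7A6OS lie together in the genome, and the sources used here do not say whether counting used strand.

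SLC7A5, the large neutral amino acid exchanger LAT1, was called between ages and in no comparison of lineages. It had 167 and 262.5 CPM in Morula, 289 CPM in EB, 245, 155 and 303 CPM in MB ICM and 286, 84.8 and 144 CPM in MB TE. The highest MB ICM cell stood at 759.6 CPM, beside a class median of 164.4 CPM. That level is only a few reads in the shallowest cell of all, which held 2633 reads and is in MB ICM replicate 5. The part of that cell in the replicate 5 average was not tested. On day 9 all 7 averages lay lower: 67.4, 28.8 and 60.1 CPM in LB EPI, 22.5 and 51.1 CPM in LB PE, and 46.7 and 35.9 CPM in LB TE. The lowest value of days 6 to 8 was thus above the highest of day 9.

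The fall in SLC7A5 from MB ICM was 1.90 ± 0.37 in LB EPI (log2, SE; limma adjusted p = 0.00356) and 2.35 ± 0.42 in LB PE (limma adjusted p = 0.0107). LB TE against MB TE gave -1.70 ± 0.42 (limma adjusted p = 0.149), which did not pass. The first call was lost without replicate 3 (0.0559) or 5 (0.0664), and the second without replicate 3 (0.0684) or 5 (0.185). The call in LB PE against MB ICM was also lost by limma-voom and with the library as a fixed block. On day 9 the 3 classes overlapped in SLC7A5.

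SLC7A8, a second large neutral exchanger called LAT2, SLC43A3 and SLC38A6 are described although their changes were not among the 4 largest of a comparison, and they were named after their values were seen. SLC7A8 had 80.1, 97.0 and 86.0 CPM in MB ICM against 43.4, 23.1 and 40.1 CPM in MB TE. The day 9 averages were 112, 100.2 and 184 CPM in LB EPI, 136 and 139 CPM in LB PE and 51.0 and 71.7 CPM in LB TE. SLC7A8 was lower in trophectoderm by 1.09 ± 0.29 on day 8 (log2, SE; limma adjusted p = 0.0176; 0.267 without replicate 2). On day 9 it was lower in LB TE than LB EPI by 0.99 ± 0.32 (limma adjusted p = 0.0382; 0.0524 to 0.193 without replicate 1, 2, 3 or 5).

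SLC7A9, the light chain of the cystine and dibasic amino acid carrier of kidney and gut, was seen mainly in LB PE, at 12.0 and 11.6 CPM in replicates 3 and 5. No other average passed 2.60 CPM, so it entered the test through LB PE alone, the class in which it is called high, and its differences are given as a description. It was higher in LB PE than in LB EPI by 1.11 ± 0.23 (log2, SE; limma adjusted p = 0.00613), than in LB TE by 1.12 ± 0.25 (limma adjusted p = 0.008) and than in MB ICM by 1.07 ± 0.24 (limma adjusted p = 0.0392). None of these passed without replicate 3 (0.0802, 0.103 and 0.101) or without replicate 5 (0.104, 0.178 and 0.318), and the last was also lost without replicate 1 (0.131), 2 (0.142) or 6 (0.0525). The call against MB ICM was also lost by limma-voom and with the library as a fixed block. At 20000 reads a cell, SLC7A9 was seen in 4 of 20 LB PE cells, or 20% (5.73% to 43.7%). It was seen in 0 of 43 LB EPI cells. Taking 3 counts as the limit, that allows a share of up to 6.98% of cells with a read at that depth. Without thinning it was read in 1 of 45 LB EPI cells and 7 of 25 LB PE cells. SLC7A11, the cystine and glutamate exchanger, was called in no comparison. It reached 10 CPM in 1 average, MB ICM replicate 1 (13.2 CPM), with 9.14 and 4.77 CPM in MB ICM replicates 2 and 5 and from 0 to 9.87 CPM elsewhere.

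Among the cationic carriers, SLC7A4 and SLC7A3 had calls, the latter with the limit of the filter given below, and SLC7A1 and SLC7A2 did not pass. SLC7A4 belongs to the cationic amino acid carrier family by sequence, and its substrate is not settled. It had 127 and 156 CPM in Morula, 544 CPM in EB, 569, 571 and 333 CPM in MB ICM and 778, 1226 and 1457 CPM in MB TE. On day 9 LB EPI had 98.0, 144 and 47.5 CPM and LB TE 941 and 660.2 CPM, and LB PE replicates 3 and 5 were split at 446.5 and 92.0 CPM. LB PE replicate 3 also had more trophectoderm marker RNA than replicate 5 (6497 against 2690 CPM). The part of that in the SLC7A4 value was not tested.

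LB EPI was below MB ICM in SLC7A4 by 2.41 ± 0.38 (log2, SE; limma adjusted p = 0.000745), and LB TE above LB EPI by 3.05 ± 0.41 (limma adjusted p = 5.33e-05). Both held in all 15 settings. LB PE was below LB TE (-1.89 ± 0.45, limma adjusted p = 0.0153), which was lost without replicate 5 (0.212). MB TE against MB ICM gave 1.01 ± 0.37 (limma adjusted p = 0.0987), and EB against Morula gave 1.90 ± 0.57 (limma adjusted p = 0.494), with 2.02 within replicate 4, which holds both classes. Neither passed.

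SLC7A3, an arginine and lysine carrier, had 6.35, 77.2 and 22.6 CPM in LB EPI replicates 2, 3 and 5, 2.53 and 3.22 CPM in LB PE, 5.16 and 2.57 CPM in LB TE, and 0 to 0.492 CPM in MB ICM. The LB EPI averages differ more than 10-fold from each other, and the gene entered the test through LB EPI alone, the class in which it is called high. Its differences, given as a description, were 1.73 ± 0.39 in LB EPI against MB ICM (log2, SE; limma adjusted p = 0.0116), -1.47 ± 0.43 in LB TE against LB EPI (limma adjusted p = 0.0241) and -1.58 ± 0.43 in LB PE against LB EPI (limma adjusted p = 0.038). Each was lost without replicate 3 (0.0875, 0.255 and 0.3) or 5 (0.144, 0.165 and 0.149), and the first and last also without replicate 1 (0.0534 and 0.0619). With no filter on low values, the comparisons with LB TE and LB PE did not pass (0.0726 and 0.109). At 20000 reads, SLC7A3 was seen in 13 of 43 LB EPI cells, or 30.2% (17.2% to 46.1%), and in 0 of 47 MB ICM cells, which allows a share of up to 6.38% of cells with a read at that depth. Without thinning it was read in 31 of 45 LB EPI cells and 2 of 51 MB ICM cells. SLC7A2 reached 35.5 CPM in Morula replicate 6 and 1.61 CPM in Morula replicate 4. That library also carried the cumulus and granulosa marker sum of 1008 CPM, and the part of those cells in the SLC7A2 value was not tested.

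Of the SLC6 carriers, SLC6A20, which takes up proline and related imino acids, was called in comparisons of both lineage and age. It had 11.4 and 22.6 CPM in Morula and 102 CPM in EB. On day 8 it had 114.5, 246 and 131 CPM in MB ICM replicates 1, 2 and 5, and 27.0, 49.2 and 77.2 CPM in MB TE replicates 1, 2 and 3. On day 9 it had 23.4, 19.0 and 28.9 CPM in LB EPI, 101.5 and 105 CPM in LB TE, and 254 and 273 CPM in LB PE. The 3 classes of day 9 did not overlap and stood in the order LB PE, LB TE, LB EPI.

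SLC6A20 was lower in MB TE than in MB ICM by 1.53 ± 0.32 (log2, SE; limma adjusted p = 0.0034; 0.0997 without replicate 2). From MB ICM to LB EPI the log2 difference was -2.37 ± 0.33 (limma adjusted p = 0.000189). LB TE then exceeded LB EPI by 1.78 ± 0.36 (limma adjusted p = 0.00161), and LB PE exceeded LB EPI by 3.05 ± 0.36 (limma adjusted p = 2.2e-05). These last 3 changes kept their call in all 15 settings. The step from LB TE to LB PE was 1.27 ± 0.39 (limma adjusted p = 0.0568) and from Morula to EB 2.14 ± 0.49 (limma adjusted p = 0.159; 2.39 within replicate 4), and neither passed.

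In single cells thinned to 20000 reads, SLC6A20 was seen in 4 of 50 Morula cells, or 8% (2.22% to 19.2%), 23 of 36 EB cells, or 63.9% (46.2% to 79.2%), and 40 of 47 MB ICM cells, or 85.1% (71.7% to 93.8%). It was then seen in 12 of 43 LB EPI cells, or 27.9% (15.3% to 43.7%), 22 of 31 LB TE cells, or 71.0% (52.0% to 85.8%), and 19 of 20 LB PE cells, or 95% (75.1% to 99.9%).

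**Figure D3:**
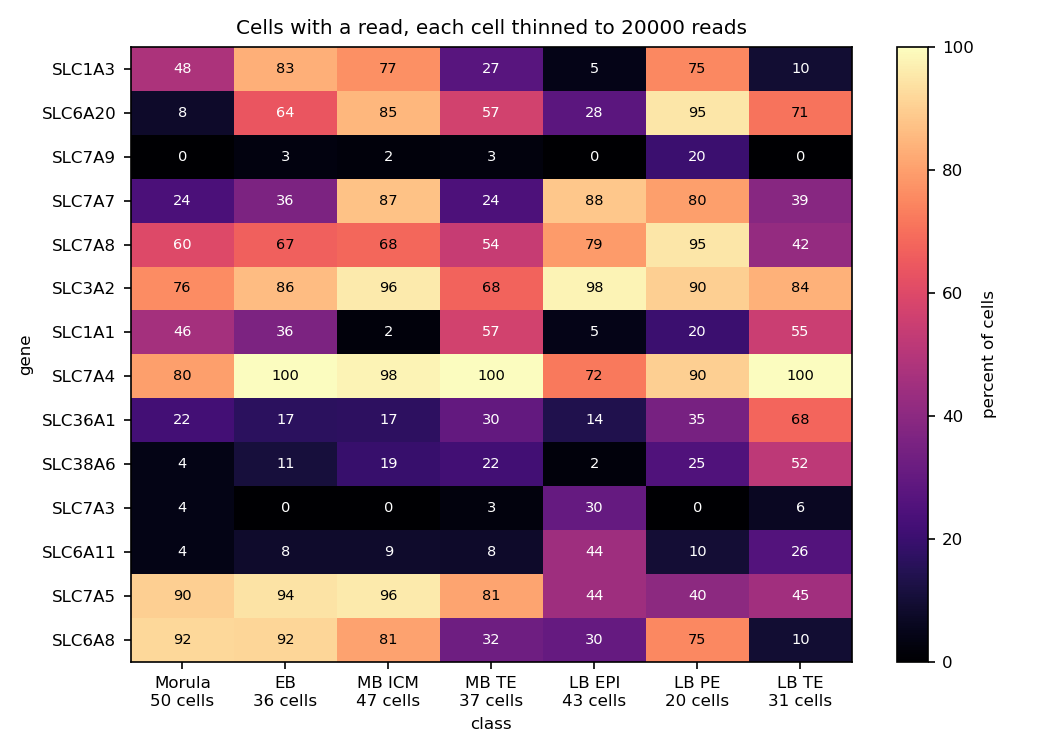
Percentage of cells in which at least 1 read of the named transporter was seen, by class, with each cell thinned to 20000 reads. SLC1A3 is seen in 76.6% of MB ICM cells, 4.65% of LB EPI cells and 75% of LB PE cells.

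The difference of trophectoderm from MB ICM on day 8 was set against its difference from LB EPI on day 9. For SLC6A20 it was -1.53 on day 8 (MB TE against MB ICM) and 1.78 on day 9 (LB TE against LB EPI), so its sign turned, and the day 9 minus day 8 difference was 3.31 ± 0.48 (log2, SE; limma adjusted p = 0.00223). For SLC1A3 it went from -2.21 to 0.19, a difference of 2.40 ± 0.49 (limma adjusted p = 0.0328). Of the 36 transporters these 2 passed, both upward, where 0.367% of all genes did (0.215% upward and 0.152% downward). Against the other inner class of day 9, LB PE, the sign of day 8 was kept: LB TE was below LB PE by 3.64 in SLC1A3 and by 1.27 in SLC6A20, the latter not past the threshold. The test was added after the data were seen. SLC6A20 did not pass without replicate 2 (0.0544) or 3 (0.0657), and SLC1A3 did not pass without replicate 1 (0.169), 2 (0.165), 3 (0.494) or 5 (0.0562).

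**Figure D4:**
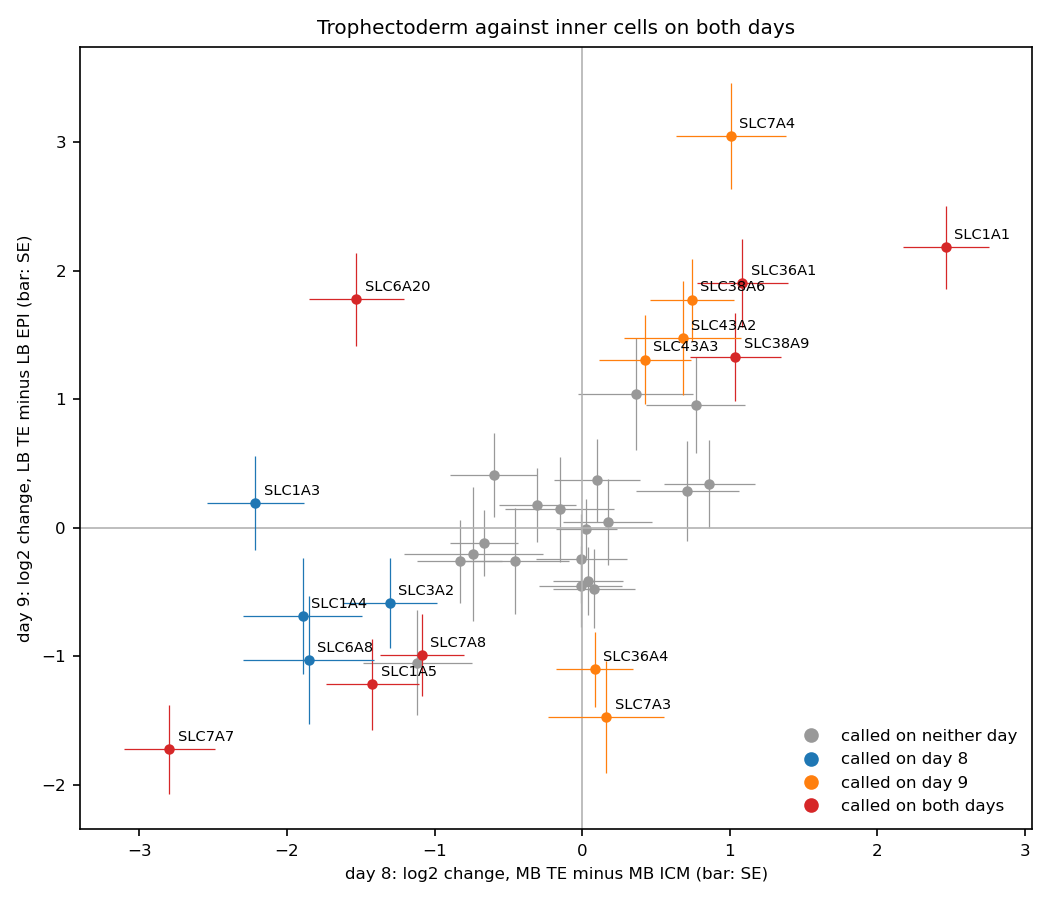
Log2 difference between trophectoderm and ICM or EPI cells for each tested transporter, on day 8 (MB TE against MB ICM, horizontal) and on day 9 (LB TE against LB EPI, vertical). SLC6A20 lies at -1.53 and 1.78, SLC7A7 at -2.80 and -1.73, and SLC1A1 at 2.46 and 2.18.

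SLC6A8, the creatine carrier, was high early: 266 and 255 CPM in Morula, 249.8 CPM in EB and 139, 115 and 96.7 CPM in MB ICM. MB TE replicates 1, 2 and 3 held 85.4, 8.44 and 16.3 CPM. Its day 9 levels were 33.0, 20.9 and 38.3 CPM in LB EPI, 13.8 and 6.50 CPM in LB TE, and 188 and 64.4 CPM in LB PE replicates 3 and 5. LB PE was above both other day 9 classes without overlap, though its libraries differed from each other. Single cells were uneven. The highest LB EPI cell stood at 646.3 CPM, beside a class median of 11.15 CPM. In MB TE the highest cell stood at 745 CPM, beside a median of 18.32 CPM.

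SLC6A8 was higher in LB PE than in LB TE by 2.61 ± 0.54 (log2, SE; limma adjusted p = 0.00531; 0.111 without replicate 3 and 0.0568 without replicate 5). LB PE against LB EPI gave 1.58 (limma adjusted p = 0.0704), which did not pass. It was lower in MB TE than in MB ICM by 1.85 ± 0.45 (limma adjusted p = 0.0105; 0.171 without replicate 2 and 0.0631 without replicate 3). The difference from EB to MB TE was -2.90 ± 0.68 (limma adjusted p = 0.045) and from MB ICM to LB EPI -1.56 ± 0.45 (limma adjusted p = 0.0493). The first of these was lost without replicate 2, 3, 5 or 6 (0.058 to 0.216), and the second without replicate 2, 3, 4, 5 or 6 (0.0585 to 0.183).

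SLC6A11, a GABA carrier, was low until day 9, at no more than 9.55 CPM in any earlier average. LB EPI had 18.6, 35.2 and 27.1 CPM, LB TE 20.3 and 13.9 CPM, and LB PE 3.98 and 7.68 CPM. SLC6A11 thus entered the test through LB EPI and LB TE, and its differences are given as a description. LB EPI exceeded MB ICM by 1.18 ± 0.28 (log2, SE; limma adjusted p = 0.0161; 0.0523 to 0.132 without replicate 1, 2, 3 or 5), and LB PE was below LB EPI (-1.23 ± 0.31, limma adjusted p = 0.0226; 0.18 without replicate 3 and 0.0788 without replicate 5). SLC6A9, the glycine carrier GLYT1, was called in no comparison. It had 4.29, 11.2 and 4.41 CPM in MB ICM, 0 to 0.523 CPM in MB TE, 4.82, 0.727 and 0.212 CPM in LB EPI, 1.39 and 3.99 CPM in LB PE and 0.382 and 0.545 CPM in LB TE, with 0.327 to 1.94 CPM in Morula and EB. The monoamine carriers SLC6A2 and SLC6A4 stayed under 10 CPM, and SLC6A3, the dopamine carrier, reached 11.8 CPM in LB EPI replicate 5 only, where 1 cell at 269 CPM makes most of the average and reads were seen in 4 of 45 LB EPI cells.

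SLC36A1 and SLC38A9, both known from the lysosome, were higher in trophectoderm than in ICM and EPI cells. SLC36A1, which exports small neutral amino acids from lysosomes with protons, had 11.5, 10.3 and 13.3 CPM in MB ICM and 33.5, 27.3 and 54.5 CPM in MB TE. On day 9 it had 5.42, 11.4 and 12.3 CPM in LB EPI, 63.9 and 67.7 CPM in LB TE and 33.3 and 17.0 CPM in LB PE. SLC38A9, which senses lysosomal arginine for mTORC1, had 14.6, 35.2 and 19.6 CPM in MB ICM and 41.8, 73.9 and 61.7 CPM in MB TE, then 15.7, 28.5 and 18.1 CPM in LB EPI, 73.2 and 57.9 CPM in LB TE and 44.8 and 42.1 CPM in LB PE. For both genes every trophectoderm average lay above every ICM and EPI average of the same day.

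SLC36A1 was higher in LB TE than in LB EPI by 1.90 ± 0.34 (log2, SE; limma adjusted p = 0.00055), in all 15 settings, and in MB TE than in MB ICM by 1.08 ± 0.31 (limma adjusted p = 0.0271; 0.0517 to 0.109 without replicate 1, 2, 3 or 5). SLC38A9 was higher by 1.33 ± 0.34 on day 9 (limma adjusted p = 0.0101; 0.0798 without replicate 3 and 0.0801 without replicate 5). On day 8 it was higher by 1.04 ± 0.31 (limma adjusted p = 0.0347; 0.08 to 0.123 without replicate 1, 2, 3 or 5). SLC36A4, a carrier of proline and tryptophan, had 10.2, 16.1 and 16.8 CPM in LB EPI, 7.05 and 21.7 CPM in LB PE, 1.57 and 1.08 CPM in LB TE and 0 to 2.45 CPM on the earlier days. It reached 10 CPM in LB EPI and LB PE replicate 5 only, and entered the test through classes in which it is high. Its differences are given as a description. It rose from MB ICM to LB EPI by 1.19 ± 0.26 (limma adjusted p = 0.00849; 0.0549 without replicate 2 and 0.0948 without replicate 5) and was lower in LB TE than in LB EPI (-1.10 ± 0.29, limma adjusted p = 0.0112; 0.0747 without replicate 3 and 0.112 without replicate 5).

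Among the SLC38 carriers of neutral amino acids, 1 of the tested members other than SLC38A9 changed. SLC38A6 had 4.63, 4.89 and 4.60 CPM in LB EPI and 33.8 and 49.3 CPM in LB TE, with 20.2 and 10.5 CPM in LB PE. It was higher in LB TE than in LB EPI by 1.78 ± 0.32 (log2, SE; limma adjusted p = 0.000553), in all 15 settings. SLC38A2, the stress-responsive glutamine and alanine carrier SNAT2, had 204, 164 and 291 CPM in MB ICM and 91.9, 74.5 and 134 CPM in MB TE. It had 197, 185 and 266 CPM in LB EPI, 102 and 103 CPM in LB TE, and 299 and 66.2 CPM in LB PE replicates 3 and 5. The highest MB ICM cell stood at 759.6 CPM, beside a class median of 154.3 CPM. That level is only a few reads in the shallowest cell, of 2633 reads, in MB ICM replicate 5. The part of that cell in the replicate 5 average was not tested. Trophectoderm averages lay below those of ICM and EPI on both days, but the differences did not pass: -1.12 ± 0.37 on day 8 (limma adjusted p = 0.0599) and -1.05 ± 0.41 on day 9 (limma adjusted p = 0.0948).

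Of the SLC43 family, SLC43A2, a large neutral amino acid carrier called LAT4, had 6.45, 11.1 and 6.44 CPM in LB EPI, 55.8 and 24.9 CPM in LB TE and 82.3 and 33.9 CPM in LB PE. Day 8 averages ran from 8.01 to 71.1 CPM in MB ICM and from 44.5 to 66.2 CPM in MB TE. It was higher than in LB EPI by 1.88 ± 0.44 in LB PE (log2, SE; limma adjusted p = 0.0141; 0.178 without replicate 3) and by 1.47 ± 0.44 in LB TE (limma adjusted p = 0.0259; 0.293 without replicate 3). SLC43A3, which carries purine nucleobases and not amino acids, had 3.73, 3.15 and 5.22 CPM in LB EPI and 24.5 and 23.6 CPM in LB TE. It was higher in LB TE by 1.31 ± 0.35 (limma adjusted p = 0.0122; 0.0952 without replicate 3 and 0.0657 without replicate 5). SLC43A1, a carrier like SLC43A2, was above 30 CPM in every average and called in none of the comparisons.

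**Figure D5:**
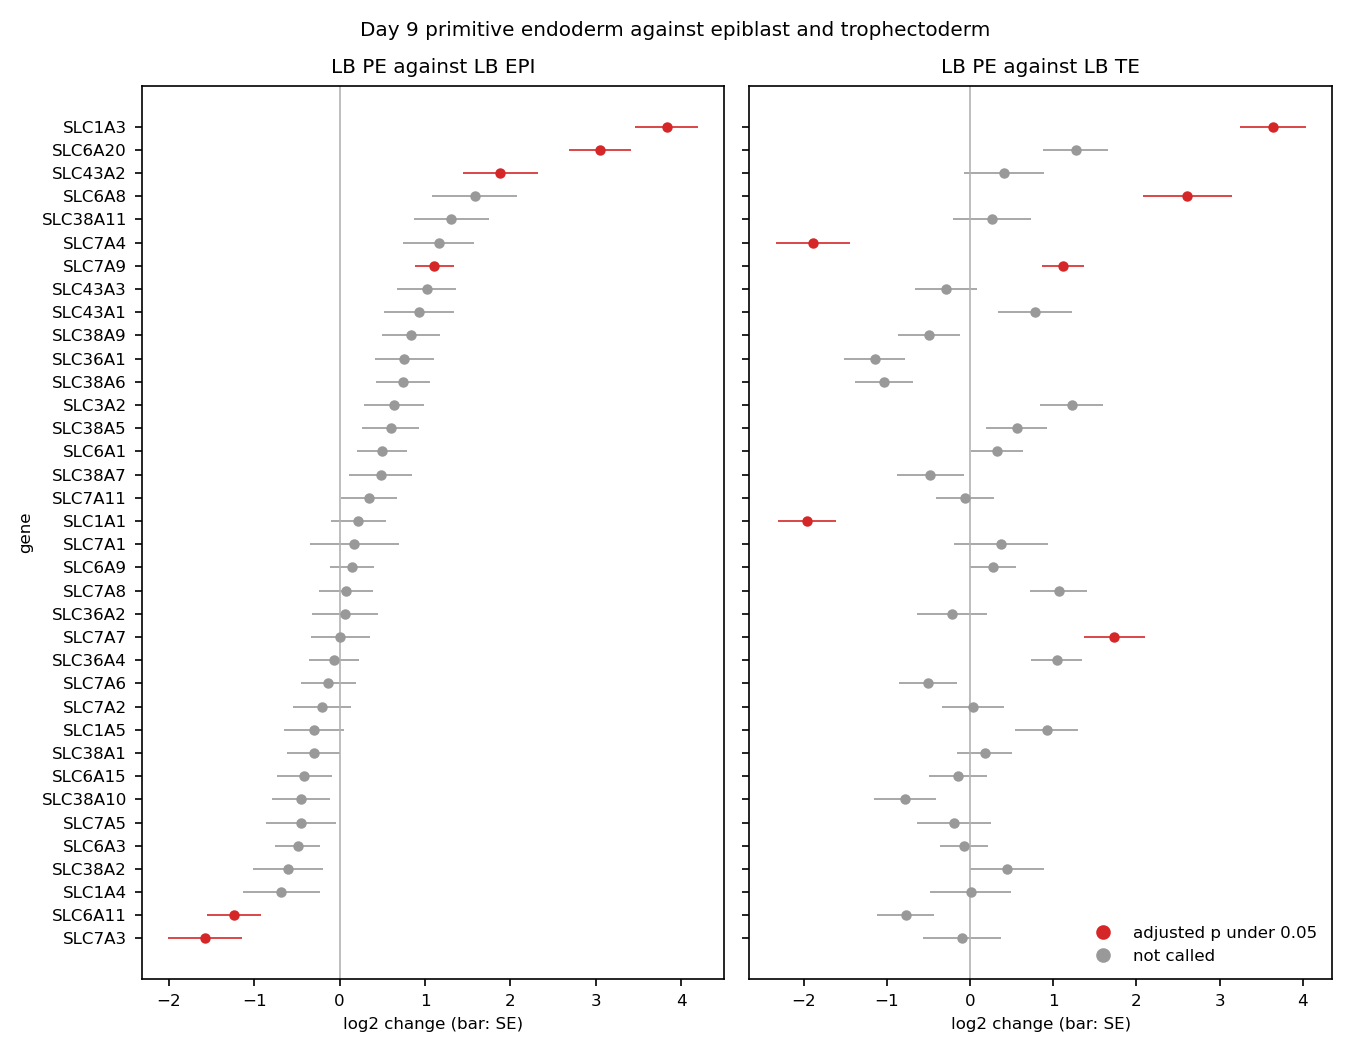
Log2 difference of each tested transporter in LB PE against LB EPI and against LB TE, with the SE of the fit as bars. SLC1A3 is highest in both, at 3.83 and 3.64, and the comparisons share the LB PE averages.

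In LB PE, SLC7A7 overlapped LB EPI and was above LB TE, while SLC43A2 overlapped LB TE and was above LB EPI. SLC1A3 was above both. LB PE cells were shallower than the others, and with cells of at least 20000 reads only, an alternative chosen after the depths were seen, 9 transporters were called against LB EPI and 9 against LB TE. Calls over all genes also grew, from 676 to 978 and from 734 to 983. LB PE replicates 3 and 5 also differed in fibroblast markers (274 and 1102 CPM) and trophectoderm markers, and the part of these in the values of LB PE was not tested.

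Other genes of amino acid supply were counted from lists that share no member with the transporters. Of 22 further amino acid and peptide carriers, 18 were in the table and 12 tested. In LB TE against LB EPI, 4 of the 12 were higher and 0 lower, beside 8.27% and 6.9% of all genes: CTNS, which exports cystine from lysosomes (2.03 ± 0.37, log2, SE; limma adjusted p = 0.000666), SLC25A13, the mitochondrial aspartate and glutamate carrier (1.79 ± 0.35, limma adjusted p = 0.00118), SLC17A5, the lysosomal sialic acid carrier (1.86 ± 0.40, limma adjusted p = 0.00278), and MFSD12, named as the last of the 4. In MB TE against MB ICM, 2 were higher and 1 lower, beside 5.97% and 4.11% of all genes. CTNS (1.70 ± 0.34, limma adjusted p = 0.0018) and SLC17A5 (1.45 ± 0.36, limma adjusted p = 0.0125) rose, and SLC25A15, the mitochondrial ornithine carrier, fell (-1.55 ± 0.35, limma adjusted p = 0.00577). LB PE was below LB TE in CTNS (-2.10 ± 0.40, limma adjusted p = 0.00248) and SLC17A5 (-1.56 ± 0.44, limma adjusted p = 0.0369), with 0 higher, beside 3.39% of all genes lower and 2.46% higher.

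All 40 genes listed for amino acid sensing and mTORC1 were tested. LB TE had 2 higher and 3 lower than LB EPI, beside 8.27% and 6.9% of all genes. Among them were DDIT4, an inhibitor of mTORC1 signalling (-2.87 ± 0.48, log2, SE; limma adjusted p = 0.000311), KPTN, a subunit of the complex that restrains mTORC1 when amino acids are scarce (-1.57 ± 0.41, limma adjusted p = 0.0105), and RPS6KB1, the S6 kinase (1.38 ± 0.37, limma adjusted p = 0.0129). DDIT4 had risen from MB ICM to LB EPI (1.62 ± 0.43, limma adjusted p = 0.032), the 1 call there beside 5.1% of all genes, and was lower in LB PE than LB EPI (-2.08 ± 0.48, limma adjusted p = 0.0133), the 1 call beside 5.39%. MB TE had 1 higher and 1 lower than MB ICM, beside 5.97% and 4.11% of all genes: CASTOR2, an arginine sensor family member (0.91 ± 0.29, limma adjusted p = 0.0494), and the Rag GTPase RRAGB (-1.61 ± 0.34, limma adjusted p = 0.00339). In LB PE against LB TE, beside 5.85% of all genes, the 1 call was RRAGC, also a Rag GTPase (-1.59 ± 0.46, limma adjusted p = 0.0462).

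Of 39 genes of amino acid use, 33 were tested. LB TE had 9 higher and 7 lower than LB EPI, beside 8.27% and 6.9% of all genes. GLUD1, the mitochondrial glutamate dehydrogenase, was lower in LB TE (-2.65 ± 0.26, log2, SE; limma adjusted p = 8.39e-07), as was spermine synthase SMS (-2.42 ± 0.41, limma adjusted p = 0.000287), while spermidine synthase SRM was higher (2.09 ± 0.36, limma adjusted p = 0.00037). MB TE had 5 higher and 6 lower than MB ICM, beside 5.97% and 4.11% of all genes, with CBS, of the pathway from methionine to cysteine (-1.63 ± 0.30, limma adjusted p = 0.00085), the arginase ARG2 (-1.28 ± 0.26, limma adjusted p = 0.00236) and SRM (1.51 ± 0.32, limma adjusted p = 0.00385) the lowest in p. LB EPI had 4 higher and 1 lower than MB ICM, beside 3.29% and 1.81% of all genes: GLUD1 (1.51 ± 0.23, limma adjusted p = 0.00059) and the cysteine dioxygenase CDO1 (1.90 ± 0.34, limma adjusted p = 0.00194) rose and the ornithine decarboxylase ODC1 fell (-1.41 ± 0.28, limma adjusted p = 0.00359).

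LB PE had 5 higher and 4 lower than LB EPI in the list of amino acid use, beside 2.98% and 2.41% of all genes. GCLC, the catalytic subunit of the first step to glutathione, was higher by 2.17 ± 0.36 (log2, SE; limma adjusted p = 0.00116) and ODC1 by 1.70 ± 0.31 (limma adjusted p = 0.0021), and ARG2 was lower (-1.71 ± 0.29, limma adjusted p = 0.0012). Against LB TE, LB PE had 1 higher and 4 lower, beside 2.46% and 3.39% of all genes. GLUD1 was higher (2.12 ± 0.28, limma adjusted p = 9.57e-05), and OAZ1, which restrains ODC1 (-1.20 ± 0.28, limma adjusted p = 0.0108), and CTH, which makes cysteine from cystathionine (-1.47 ± 0.35, limma adjusted p = 0.0141), were among the lower.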

How the data were processed

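Per the labels' protocols, cells were taken singly through oligo(dT) reverse transcription and amplification with a barcode each. Tools named in the submitters' processing notes are Seurat, featureCounts, HISAT2 and Trim Galore, with the build ARS-UCD1.2. The sources used here give no settings, filters, strand use or counting of molecular identifiers. The authors deposited natural log values, as ln(1 + x) with x scaled to 10000 per cell, in a table of 18825 genes by 286 cells. Another 2 cells of the 288 described have no values. Within 0.1 reads, 100% of the values were whole multiples of a step per cell, which gave each cell's reads. Libraries from BE3-injected embryos were not analysed here.

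The log was undone, values were scaled to CPM, and a mean was taken for each library and class with at least 3 cells (7 with fewer, holding 10 cells, were left out). These means were fitted as log2(CPM + 10) in R 4.3.3 with limma 3.58.1, using its trended and robust empirical Bayes test, statmod 1.5.0 and data.table (1.17.8). The fit covered all 7 classes, with 9 residual degrees of freedom. The library was a random block, since a library gave cells of several classes, and averages of a library deviated together (consensus correlation 0.18). The script was tested on simulated data. Nothing says that libraries came from separate embryos, so the spread behind each p-value is that between libraries and may be technical. Shares of cells with a read were taken after thinning to 20000 reads.

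The members and lists were chosen with earlier results of these data known. Values by library are given for members called in a comparison, up to the 4 largest rises and 4 largest falls in each, and always for SLC1A3, SLC6A20, SLC3A2, SLC7A5, SLC1A5, SLC38A2, SLC7A11, SLC6A6, SLC6A8 and SLC6A9. From each other list, up to 3 called genes of smallest p are named. SLC7A8, SLC38A6, SLC43A3, SLC7A2, SLC7A6, SLC43A1, SLC6A3 and MFSD12 were named after their values were seen. Alternatives are given in the closing section.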

Additional observations from a re-analysis of the deposited data

Results flagged for a closer look

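SLC6A20 and SLC1A3 are listed because the difference of LB TE from LB EPI on day 9 was itself different from that of MB TE from MB ICM on day 8. The change was 3.31 ± 0.48 for SLC6A20 (log2, SE; limma adjusted p = 0.00223) and 2.40 ± 0.49 for SLC1A3 (limma adjusted p = 0.0328), in a test added after the data were seen. SLC6A20 was lower in MB TE than in MB ICM in 2 of the 2 libraries holding both, and higher in LB TE than in LB EPI in 2 of the 2 libraries holding both. SLC1A3 was lower in MB TE in 2 of 2 libraries, and in LB TE against LB EPI the within-library values were 0.36 and -0.21. Over the alternatives, the adjusted p ran from 0.000149 to 0.0657 for SLC6A20 and from 0.0114 to 0.494 for SLC1A3. Against LB PE, the other inner class of day 9, LB TE was lower in both genes, by 3.64 for SLC1A3 and 1.27 for SLC6A20 (limma adjusted p = 9.65e-06 and 0.0568), so the sign of day 8 was kept there. No library holds averages of all 4 classes, so the change over age is in part a comparison between libraries.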

How the results depend on the processing

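The 49 called changes were recomputed in 15 settings, giving 729 values, of which 129 lost the call and 0 reversed. Calls kept in every setting run number 15. Without replicate 3, 27 were lost, and without replicate 5, 26, which leave LB PE and LB TE with 1 average that is assumed to vary like the other classes. Without replicate 2, 14 were lost, and in each other setting 1 to 9. Counts of called transporters moved by more than 1.5 times as follows. EB against Morula had 0, and 1 by limma-voom on summed reads or with cells of at least 20000 reads only. MB ICM against EB had 1, with 0 at a pseudocount of 1 or with logs averaged over cells, and 2 with no filter on low values, by limma-voom or with cells of at least 20000 reads. MB TE against EB had 2, with 1 at a pseudocount of 1, with no filter or with at least 5 cells per average. MB TE against MB ICM had 11, with 7 at 5 cells per average. LB PE against MB ICM had 2, with 1 at a pseudocount of 1 or 5 cells per average and 0 by limma-voom. With the pairing of classes by library, LB PE against MB ICM had 1 with no replicate block and 0 with the replicate block as a fixed effect, and the block moved no other count of transporters by over 1.5 times. Calls over all genes in that comparison moved too, from 88 to 13 at a pseudocount of 1, 65 at 5 cells per average, 2 by limma-voom, 36 with no block and 0 with the fixed block. The fixed block gives no value between EB and day 8, and without replicate 4 no EB average is left.

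Leaving out each replicate gave 0 to 1 called in MB ICM against EB, 0 to 2 in MB TE against EB, 4 to 11 in MB TE against MB ICM and 4 to 7 in LB EPI against MB ICM. It gave 0 to 3 in LB PE against MB ICM, 0 to 1 in LB TE against MB TE, 6 to 13 in LB TE against LB EPI, 3 to 6 in LB PE against LB EPI and 1 to 7 in LB PE against LB TE. The causes were not tested. Median-of-ratios scaling moved the share of higher calls over all genes from 22.7% to 46.2% in MB ICM against EB and from 53.6% to 70.3% in MB TE against EB. With logs averaged over cells it moved from 55.3% to 24.5% in LB PE against LB EPI and from 42.1% to 17.6% in LB PE against LB TE. Thinned to 10000 reads, SLC1A3 was seen in 0 of 45 LB EPI cells and 66.7% of 21 LB PE cells.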

Other observations

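In the EB cells of replicate 4 (35 cells of a single library, a description with no test), SLC1A3 and SLC6A20 varied together from cell to cell, with a Spearman rho of 0.56. SLC6A20 had a rho of 0.63 with PDGFRA, a hypoblast marker, and SLC1A3 a rho of 0.38. Their rho with reads per cell was 0.11 for SLC1A3, -0.07 for SLC6A20 and 0.05 for PDGFRA. In MB ICM, the rho of SLC1A3 with SLC6A20 was 0.19 in replicate 1 (24 cells) and 0.35 in replicate 2 (21 cells), and with PDGFRA the rho was 0.27 and -0.01 for SLC6A20 and 0.40 and 0.08 for SLC1A3. The rho of SLC6A20 with SOX2, an epiblast factor, was 0.07 in EB, 0.26 in Morula replicate 6 (45 cells), -0.38 and 0.04 in MB ICM and -0.37 in LB EPI replicate 5 (24 cells). That of SLC1A3 with SOX2 was 0.25, 0.39, 0.14 and 0.08, and -0.12 in the same order. In Morula replicate 6, SLC1A3 had a rho of 0.48 with SLC6A20, 0.20 with PDGFRA and 0.70 with reads per cell. With PDGFRA, SLC1A3 and SLC6A20 had 0.42 and 0.16 in LB EPI replicate 5, and 0.12 and 0.39 in LB TE replicate 3.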
